A study of Mus musculus with 6 samples.

Results

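The 10 genes described here encode the cytoplasmic machinery that sets noncanonical NF-κB signaling: the kinase NIK (Map3k14), the 3 IκB kinase subunits Chuk, Ikbkb and Ikbkg, the 4 adaptors Traf1, Traf2, Traf3 and Traf6, and the 2 cellular inhibitors of apoptosis Birc2 and Birc3. They were taken by name for these roles and not for their values. Each symbol matched 1 Ensembl ID, and all 10 had counts in every library. All 10 passed the filter on low counts and were among the 21849 genes tested, of 56748 IDs counted.

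In resting cells, TRAF3 ties newly made NIK to a complex of TRAF2 with cIAP1 and cIAP2, which mark NIK with ubiquitin for destruction. When receptors such as the lymphotoxin β receptor, CD40 or RANK are engaged, this complex removes TRAF3 instead, NIK accumulates, and NIK activates IKKα, the product of Chuk. IKKα then triggers the processing of p100, the precursor encoded by Nfkb2, into p52, which enters the nucleus with RelB. In DCs the pathway is known for its roles in maturation and antigen presentation. NIK and TRAF3 are governed largely at the protein level, which mRNA counts do not measure.

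Polyadenylated RNA was sequenced from unstimulated BMDCs (0 h) of WT C57BL/6 mice and of global Nfkb2-/- mice, with 3 libraries per genotype. Both cultures lasted 9 days, with GM-CSF alone at 20 ng/mL for 5 days and then GM-CSF at 20 ng/mL together with IL-4 at 10 ng/mL for 4 days. GM-CSF drives marrow progenitors toward myeloid cells, and IL-4 favours a DC fate. The knockout was not restricted to DCs, so every cell type of these cultures came from Nfkb2-deficient marrow, and the age of the mice is not given in the sources used here. The libraries are described as independent biological replicates without naming the animals behind them, so p-values measure the spread between these libraries.

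The libraries held 29863927 to 55623068 counts, and 1 count corresponded to 0.0187 to 0.0344 CPM, the unit of counts scaled to library size with the TMM method. Nfkb2, the targeted gene, measured 215, 154 and 355 CPM in WT replicates 1, 2 and 3 and 44.8, 32.3 and 32.6 CPM in Nfkb2-/- replicates 1, 2 and 3, a log2 fold change of -2.72 (SE 0.33, adjusted p = 0.0307, edgeR). Nfkb2-/- replicate 1 stood apart, with at least 1 count on 47952 IDs against 27692 to 33841 in the other libraries. DC markers were present in every library, and 1 of the 9 passed. This was Itgax, which encodes CD11c and rose from 187 to 743 CPM (log2 fold change 1.99, adjusted p = 0.0414, edgeR). The abundant markers Cd74 and Irf4 measured 1870 to 3691 and 710 to 1338 CPM over the 6 libraries. Itgax, Ciita and Clec9a were higher in each Nfkb2-/- library than in any WT library, as were 12.7% of all genes. Zbtb46 was lower in each, as were 12.0% of all genes, with means of 179 CPM in WT and 123 CPM in Nfkb2-/- BMDCs (adjusted p = 0.192, edgeR). The summed level of the 9 macrophage markers was 149 to 988 CPM in WT and 565 to 699 CPM in Nfkb2-/- BMDCs. Of the 9 granulocyte and mast cell markers, 8 were tested and summed to 71.2 to 141 CPM in WT and 107 to 116 CPM in Nfkb2-/- BMDCs, and Elane was below the filter. Cpa3, a mast cell protease, fell (log2 fold change -1.84, adjusted p = 0.0413, edgeR), and the most abundant, S100a8 and S100a9, did not pass. No gene at all passed without WT replicate 1 or without any 1 of the Nfkb2-/- replicates, so each call given here was lost in those fits.

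None of the 10 genes differed between the genotypes at an adjusted p-value under 0.05 with a fold change over 1.2, by edgeR's quasi-likelihood test, with p-values adjusted over all genes by the Benjamini-Hochberg method. Among all genes tested, 248 passed, which is 1.14%. The mRNA levels of Traf1, Traf6 and Ikbkb were lower in each Nfkb2-/- library than in any WT library, and these were also the 3 members with an unadjusted p-value under 0.05. Over all genes, 12.0% were lower without overlap and 17.1% had an unadjusted p-value under 0.05. The median log2 fold change of the 10 members was -0.45, with 8 of 10 below 0. Over all 21849 genes tested the median was 0.08, with 9670 below 0. With DESeq2 as the test, 2 of the 10 passed, Traf1 and Traf6, where 8.65% of all genes did, and with limma voom 0 of the 10 passed.

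All 10 members were abundant, unlike many of the genes tested. Among the 6034 genes that reached 23.3 CPM on average, the mean of the least abundant member Traf2, 1.87% passed the edgeR test, 20.6% were lower without overlap, 24.8% had an unadjusted p-value under 0.05, and the median log2 fold change was -0.05. Of these 6034 genes, 3373 had a log2 fold change below 0. This abundance limit was set after the values were seen. Against it, 3 of 10 members without overlap is close to the background.

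**Figure D1:**
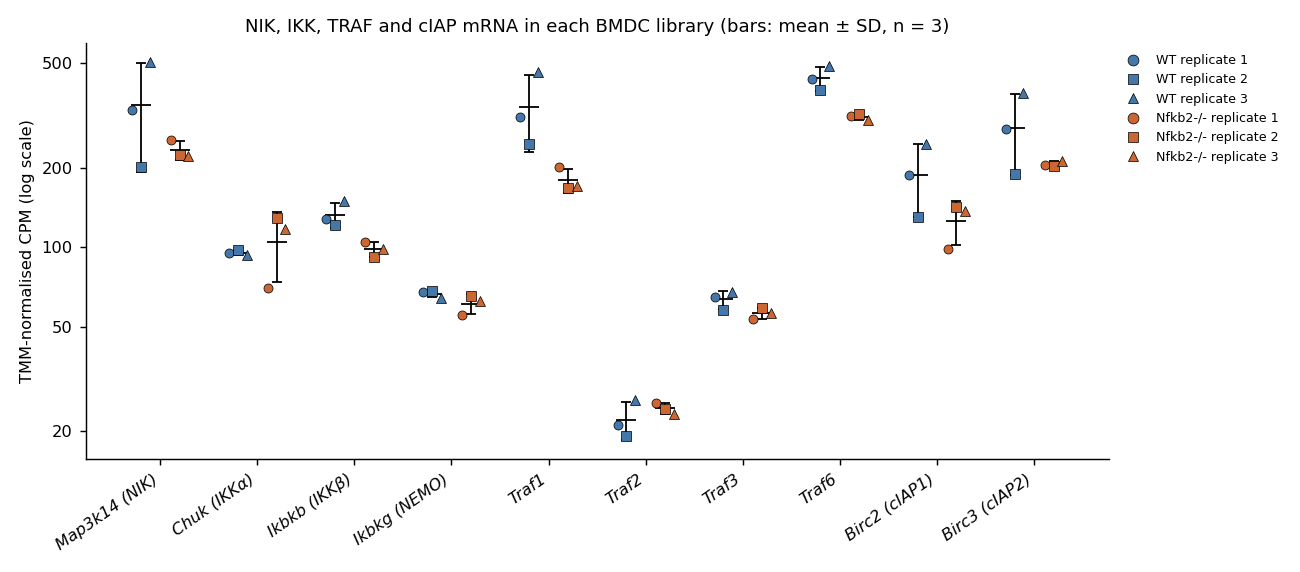
TMM-normalised CPM (log axis) of the 10 genes in each library, with WT in blue, Nfkb2-/- in orange, and circles, squares and triangles for replicates 1, 2 and 3; bars show the mean ± SD (n = 3). Traf1, Traf6 and Ikbkb show no overlap between the genotypes, and the WT values of Map3k14, Traf1, Birc2 and Birc3 are spread widely, with WT replicate 3 at the top.

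NIK is the kinase on which the noncanonical pathway depends, and its gene Map3k14 (ENSMUSG00000020941) lies on the minus strand of chromosome 11 at chr11:103219762-103267472 (GRCm38, GENCODE M21). Its mRNA measured 333, 202 and 508 CPM in WT replicates 1, 2 and 3 and 256, 225 and 222 CPM in Nfkb2-/- replicates 1, 2 and 3. The Nfkb2-/- libraries lay within the WT range, near its lower end, and WT replicate 3 was 2.51 times WT replicate 2. The means were 348 ± 153 CPM in WT and 234 ± 18.6 CPM in Nfkb2-/- BMDCs (SD, n = 3), and the log2 fold change of -0.57 (SE 0.31) missed the threshold (adjusted p = 0.413, edgeR). Without WT replicate 3 the value was -0.19, and without WT replicate 2 it was -0.84 (adjusted p = 0.739 and 0.0862, edgeR). Of its exonic sequence, 135 bases are shared with the noncoding gene 1700028N14Rik on the same strand, which measured 11.2 to 20.4 CPM over the libraries.

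Chuk encodes IKKα, the catalytic subunit that phosphorylates p100. It is at chr19:44073335-44107480 on the minus strand, 2196.8 kb from the targeted gene Nfkb2. Chuk (ENSMUSG00000025199) measured 94.9, 97.8 and 93.7 CPM in WT and 69.8, 129 and 117 CPM in Nfkb2-/- BMDCs. The WT libraries were almost level, whereas the Nfkb2-/- libraries lay on both sides of them, with replicate 1 lowest. The log2 fold change was 0.14 (SE 0.23, adjusted p = 0.794, edgeR), and it turned to -0.05 without Nfkb2-/- replicate 2.

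Ikbkb encodes IKKβ, the catalytic subunit on which the canonical arm mainly relies. The gene (ENSMUSG00000031537) spans chr8:22659212-22706589 on the minus strand, and its mRNA measured 128, 122 and 150 CPM in WT and 105, 92.2 and 99.0 CPM in Nfkb2-/- BMDCs. All 3 Nfkb2-/- values lay below the lowest WT value. The log2 fold change of -0.43 (SE 0.15) had an unadjusted p-value of 0.0199 and an adjusted p-value of 0.193 (edgeR). Leaving out single libraries moved it between -0.49 and -0.34.

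Ikbkg, at chrX:74393290-74453854 on the plus strand, encodes NEMO, the regulatory subunit of the canonical IKK complex. It measured 67.5, 68.2 and 64.5 CPM in WT and 55.3, 65.3 and 62.7 CPM in Nfkb2-/- BMDCs, with a log2 fold change of -0.13 (SE 0.13, adjusted p = 0.665, edgeR). The genotypes overlapped, and Nfkb2-/- replicate 1 was the lowest library. The exons of Ikbkg (ENSMUSG00000004221) share 418 bases with G6pdx on the opposite strand, and since the use of strand in counting is not given in the sources used here, reads in that stretch cannot be told apart. G6pdx measured 138, 123 and 98.4 CPM in WT and 159, 166 and 164 CPM in Nfkb2-/- BMDCs. The summed CPM of the 3 IKK genes was 288 to 308 in WT and 230 to 287 in Nfkb2-/- BMDCs.

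Of the TRAF adaptors, Traf1 showed the largest difference of all 10 genes. TRAF1 has no RING domain and joins TRAF2 and the cIAPs at TNF receptors, and its gene is a known NF-κB target. Traf1 (ENSMUSG00000026875, chr2:34941750-34961772, minus strand) measured 313, 247 and 464 CPM in WT and 202, 168 and 171 CPM in Nfkb2-/- BMDCs. Every Nfkb2-/- library lay below every WT library, and the means were 341 ± 111 and 180 ± 18.9 CPM (SD, n = 3). On the log2 scale the fold change was -0.92 (SE 0.25), with an unadjusted p-value of 0.00662 and an adjusted p-value of 0.125 (edgeR). Over 14 alternatives it ranged from -1.11 to -0.64 and its adjusted p-value from 0.00987 to 0.368. Traf1 passed the threshold with DESeq2 (adjusted p = 0.00987), with no filter beyond 1 count (adjusted p = 0.0469, edgeR) and without WT replicate 2 (log2 fold change -1.11, adjusted p = 0.0402, edgeR), and without WT replicate 3 the log2 fold change was -0.64.

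Traf6 (ENSMUSG00000027164, chr2:101678429-101701669, plus strand) encodes the RING ubiquitin ligase that serves IL-1 and Toll-like receptors, CD40 and RANK. It was the most abundant member by CPM, with 435, 395 and 487 CPM in WT and 315, 320 and 304 CPM in Nfkb2-/- BMDCs. Here the libraries of each genotype lay close together and apart from those of the other genotype. The log2 fold change of -0.49 (SE 0.15) had an unadjusted p-value of 0.0125 and an adjusted p-value of 0.161 (edgeR), and DESeq2 gave an adjusted p-value of 0.0147. Leaving out single libraries moved it between -0.56 and -0.41.

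Traf2 and Traf3 encode the adaptors that hold NIK for degradation. Traf2 (ENSMUSG00000026942, chr2:25517982-25546940, minus strand) measured 21.1, 19.2 and 26.2 CPM in WT and 25.7, 24.4 and 23.2 CPM in Nfkb2-/- BMDCs, with a log2 fold change of 0.14 (SE 0.17, adjusted p = 0.704, edgeR). Traf3 (ENSMUSG00000021277, chr12:111166370-111267153, plus strand) measured 64.9, 57.9 and 67.4 CPM in WT and 53.5, 59.1 and 56.2 CPM in Nfkb2-/- BMDCs, with a log2 fold change of -0.17 (SE 0.13, adjusted p = 0.557, edgeR). The genotypes overlapped for both genes, and both differences were of the order of their standard errors.

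The start regions of Traf1, which had the largest difference, and of Traf3, the adaptor that anchors NIK, are shown from RefSeq (GRCm38.p6), 5′ to 3′ on the strand of the gene and from 250 bases before the start to 50 after it. Capitals mark a match to the κB consensus on either strand. The Traf1 window is chr2:34961723-34962022 on the minus strand and holds no match, and the Traf3 window is chr12:111166120-111166419 on the plus strand.
Traf1: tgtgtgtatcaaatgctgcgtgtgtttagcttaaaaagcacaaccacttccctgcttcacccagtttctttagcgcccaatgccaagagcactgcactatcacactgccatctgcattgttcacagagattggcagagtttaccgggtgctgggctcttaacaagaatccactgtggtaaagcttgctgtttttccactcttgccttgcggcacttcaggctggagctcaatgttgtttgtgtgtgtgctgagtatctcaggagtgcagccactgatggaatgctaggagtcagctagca
Traf3: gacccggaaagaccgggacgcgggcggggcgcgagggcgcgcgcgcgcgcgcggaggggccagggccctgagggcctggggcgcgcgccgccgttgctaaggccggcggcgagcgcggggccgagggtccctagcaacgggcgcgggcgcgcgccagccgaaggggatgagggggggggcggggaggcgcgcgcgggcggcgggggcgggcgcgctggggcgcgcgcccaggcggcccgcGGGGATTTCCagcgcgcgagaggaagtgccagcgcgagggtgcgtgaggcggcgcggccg
The match in Traf3 runs from base 10 to base 1 before the start. Of the 10 members, 9 had 13 windows in the RefSeq table, which holds none for Ikbkb, and 1 of these 13 windows held a match. Over all 32851 windows of this length, 4.51% did. A match is a description of the letters and does not show binding.

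The cIAPs are ubiquitin ligases that modify NIK, TRAF3 and RIPK1, and their genes lie next to each other on the minus strand of chromosome 9. Birc2 (cIAP1, ENSMUSG00000057367, chr9:7818227-7837064) measured 188, 131 and 248 CPM in WT and 98.8, 142 and 137 CPM in Nfkb2-/- BMDCs. Birc3 (cIAP2, ENSMUSG00000032000, chr9:7848699-7873186) measured 281, 190 and 385 CPM in WT and 205, 203 and 213 CPM in Nfkb2-/- BMDCs. For both genes WT replicate 2 was the lowest WT library, within the Nfkb2-/- range for Birc2 and below it for Birc3, and the 3 Birc3 values of Nfkb2-/- BMDCs were nearly equal. The log2 fold changes were -0.58 (SE 0.26, adjusted p = 0.318) for Birc2 and -0.46 (SE 0.25, adjusted p = 0.411) for Birc3 by edgeR. Without WT replicate 3 they were -0.34 and -0.18, and without WT replicate 2 they were -0.79 and -0.68. The longest coding transcripts of these paralogs had no stretch of 50 bases in common, so reads of that length or longer from these transcripts differ.

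**Figure D2:**
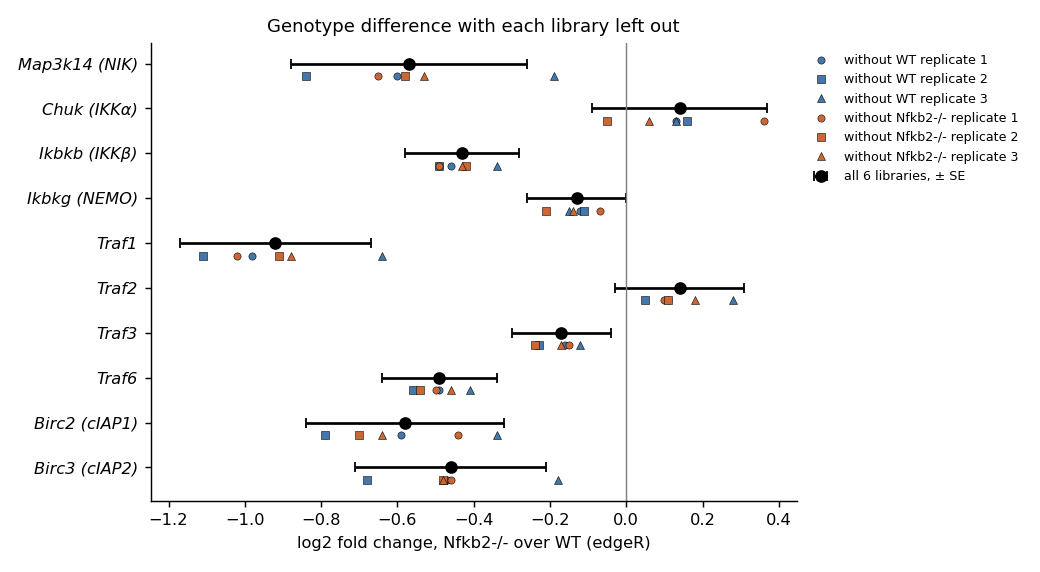
Log2 fold change of Nfkb2-/- over WT for the 10 genes from edgeR, with all 6 libraries (black, ± SE) and, just below, with each library left out (blue for WT, orange for Nfkb2-/- libraries; circle, square and triangle for replicates 1, 2 and 3). Leaving out WT replicate 3 brought Map3k14 from -0.57 to -0.19 and Birc3 from -0.46 to -0.18, whereas the values of Traf6 and Ikbkb stayed within -0.56 to -0.34.

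Several members varied more among the WT libraries than among the Nfkb2-/- libraries. In 8 of 10 members WT replicate 3 was the highest WT library and WT replicate 2 the lowest, which held for 23.8% of all genes tested and for 36.5% of the 6034 abundant genes. The exceptions were Chuk and Ikbkg. The ratio of the highest to the lowest library was 2.51 in WT and 1.15 in Nfkb2-/- BMDCs for Map3k14. For Birc3 it was 2.03 and 1.05. In 8 of 10 members the SD of log2 CPM was larger in WT, with medians of 0.194 in WT and 0.104 in Nfkb2-/- BMDCs over the members, and it was larger in WT for 49.7% of all genes and 58.2% of the abundant ones. Chuk went the other way, with ratios of 1.04 in WT and 1.85 in Nfkb2-/- BMDCs.

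Nfkb2 itself and Relb, which encodes its nuclear partner, followed the same order over the WT libraries. Relb measured 201, 119 and 260 CPM in WT and 140, 106 and 119 CPM in Nfkb2-/- BMDCs, and overlapped between the genotypes (log2 fold change -0.67, SE 0.28, adjusted p = 0.290, edgeR). The summed level of mature DC markers, most of it Ccl22, had this order too, as did 6 of the 10 markers singly. Cd86, Cd80 and Ccl17 were lowest in WT replicate 1, and Lamp3 was highest there. The 10 markers, all tested, summed to 12500, 9366 and 18375 CPM in WT and 11290, 11210 and 10530 CPM in Nfkb2-/- BMDCs. Their 2 most abundant members were Ccl22, at 7787, 5890 and 10728 CPM in WT and 5357 to 6072 CPM in Nfkb2-/- BMDCs, and Ccl17. Ccl17 rose (log2 fold change 2.92, adjusted p = 0.0307, edgeR) and Il12b fell (log2 fold change -3.09, adjusted p = 0.0489, edgeR), and the other 8 did not pass. At an unadjusted p-value under 0.05 there were 7 of the 10, DESeq2 called 5 and limma voom 2. Of the 10 markers, 4 were lower without overlap, as Traf1 was, namely Il12b, Fscn1, Cd83 and Ccl5, and 2 were higher, Ccl17 and Cd86. Over all genes 12.0% were lower and 12.7% higher in this way, and of the 6034 abundant genes 20.6% and 12.9%. Cd86 measured 292, 369 and 543 CPM in WT and 580, 641 and 575 CPM in Nfkb2-/- BMDCs (adjusted p = 0.284, edgeR). The WT and Nfkb2-/- means of Fscn1, Cd83 and Ccl5 were 1317 and 470 CPM, 950 and 438 CPM, and 405 and 141 CPM (adjusted p = 0.0902, 0.15 and 0.101, edgeR). DESeq2 called these 3 beside Ccl17 and Il12b. The lowest marker was Lamp3, at 0.0615 to 0.617 CPM over the 6 libraries.

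Of the 9 macrophage markers, 8 were lowest in WT replicate 3, the library with the highest NIK and cIAP mRNA. All 9 were tested, 0 passed with edgeR (1 at an unadjusted p-value under 0.05, 1 with DESeq2, 0 with limma voom), and the 2 most abundant, Csf1r and C1qb, measured 239, 250 and 37.2 CPM and 164, 215 and 22.8 CPM in the WT libraries. In Nfkb2-/- BMDCs they measured 115, 131 and 157 CPM and 115, 107 and 148 CPM. None of the 9 was at 0 in any library. The part of mature DCs and macrophages in the members' values was not tested, and in bulk RNA fewer cells of a type and less RNA per cell cannot be told apart.

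**Figure D3:**
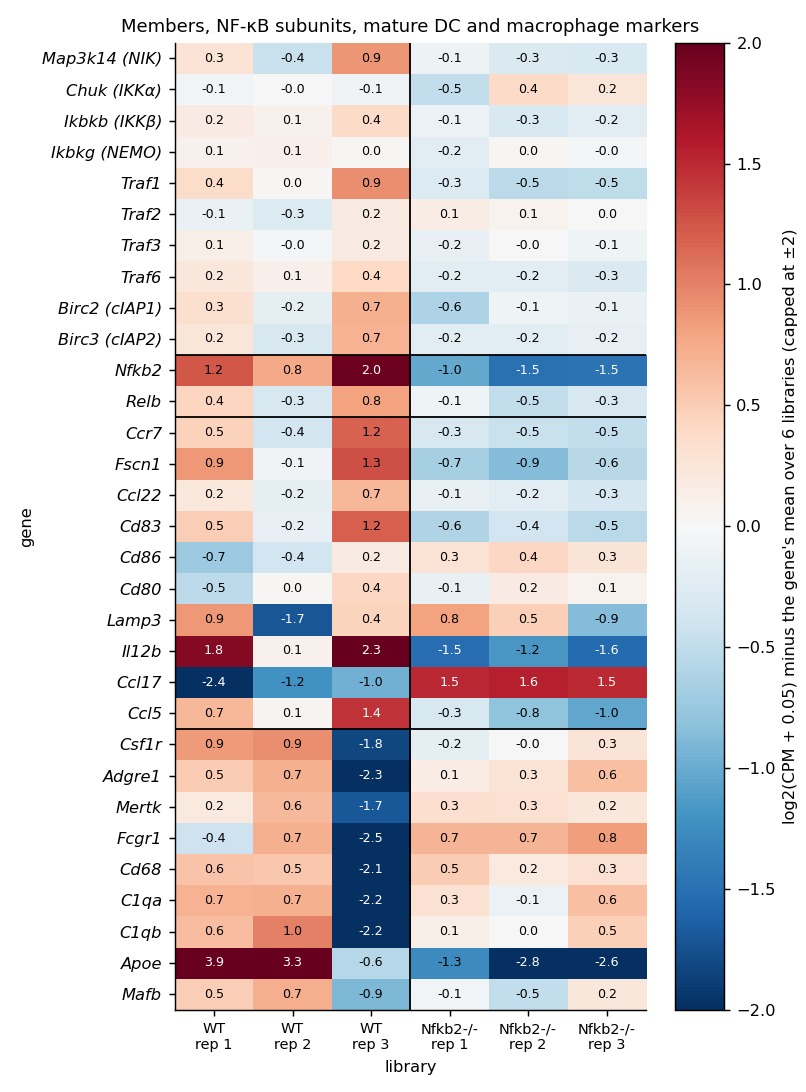
Each gene's log2(CPM + 0.05) in a library minus its mean over the 6 libraries, in colour (capped at ±2) and as a number. Rows are the 10 members, Nfkb2 and Relb, all 10 mature DC markers and all 9 macrophage markers, and columns the 6 libraries. WT replicate 3 is high for Map3k14, Traf1, Birc2, Birc3, Relb and Ccr7 and low for all 9 macrophage markers. It is the lowest library for 8 of them, and Apoe is lower still in the Nfkb2-/- libraries.

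To set the members beside each other, CPM was divided by the length of the longest coding transcript in kilobases. In WT BMDCs the order of the mean levels was Traf1 (99.4 ± 32.4 CPM per kb), Birc3 (98.0 ± 33.6), Map3k14 (81.9 ± 36.1), Traf6 (71.1 ± 7.44), Birc2 (56.6 ± 17.6), Ikbkb (33.5 ± 3.70), Chuk (27.3 ± 0.600), Ikbkg (9.54 ± 0.280), Traf3 (8.98 ± 0.694) and Traf2 (7.28 ± 1.2), each as CPM per kb with its SD (n = 3). The WT libraries separated Birc2 from Ikbkb, Ikbkb from Chuk and Chuk from Ikbkg, and the other neighbours in this order overlapped. On this per-length scale, NIK and the cIAPs were thus several-fold above Traf2 and Traf3, the adaptors that join them.

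The order of the means differed in Nfkb2-/- BMDCs. Birc3 led there in all 3 libraries at 71.2 ± 1.67 CPM per kb, followed by Map3k14 at 55.2 ± 4.38, Traf1 at 52.4 ± 5.50 and Traf6 at 50.7 ± 1.36 CPM per kb (SD, n = 3). Birc3 did not overlap Map3k14, and Map3k14 did not overlap Traf6. Lower down, Chuk (30.0 ± 8.92 CPM per kb) stood above Ikbkb (24.9 ± 1.65) and Traf2 above Traf3 (7.97 ± 0.399), in reverse of WT, and both pairs overlapped. Traf2 remained among the 3 lowest members in every library, with 8.03 ± 0.419 CPM per kb. The scale depends on the length used. With all annotated exons joined, which for Ikbkb span 19078 bases against 3977 in its longest coding transcript, the WT means were 38.7 CPM per kb for Traf1, 56.9 for Birc3, 53.1 for Map3k14, 55.7 for Traf6 and 6.98 for Ikbkb, so that Traf1 no longer led.

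Ratios within a library do not depend on library size, and 4 were compared with a two-sided exact permutation test of the 6 libraries, for which 0.1 is the smallest p-value that 3 libraries per genotype allow. The log2 ratio of Traf1 to Traf2, partners at TNF receptors, was 3.72, 3.51 and 3.97 in WT and 2.80, 2.61 and 2.71 in Nfkb2-/- BMDCs per length. Traf1 was 13.3 times Traf2 in WT and 6.51 times in Nfkb2-/- BMDCs, with no overlap, a difference of -1.03 on the log2 scale (exact permutation p = 0.1, adjusted over the 4 ratios 0.400). The ratio of Birc3 to Birc2 was nearly constant in WT, at 0.78, 0.73 and 0.83 on the log2 scale, although both genes varied about 2-fold there. In Nfkb2-/- BMDCs it was 1.25, 0.71 and 0.83, and the means differed by 0.15 (exact permutation p = 0.700), or by -0.01 without Nfkb2-/- replicate 1 and 0.26 without Nfkb2-/- replicate 2.

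The log2 ratio of Traf3 to Map3k14, the anchor and its kinase, was -3.09, -2.54 and -3.65 in WT and -2.99, -2.66 and -2.71 in Nfkb2-/- BMDCs, a difference of 0.30 (exact permutation p = 0.600) that came to 0.03 when WT replicate 3 was left out and to 0.58 when WT replicate 2 was. The WT libraries spread on both sides of the Nfkb2-/- libraries. For the kinase subunits Chuk and Ikbkb it was -0.25, -0.14 and -0.49 in WT and -0.41, 0.67 and 0.42 in Nfkb2-/- BMDCs, a difference of 0.52 (exact permutation p = 0.300) that was 0.84 without Nfkb2-/- replicate 1 and 0.30 without Nfkb2-/- replicate 2. Here Nfkb2-/- replicate 1 lay with the WT libraries and the other Nfkb2-/- libraries above them.

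**Figure D4:**
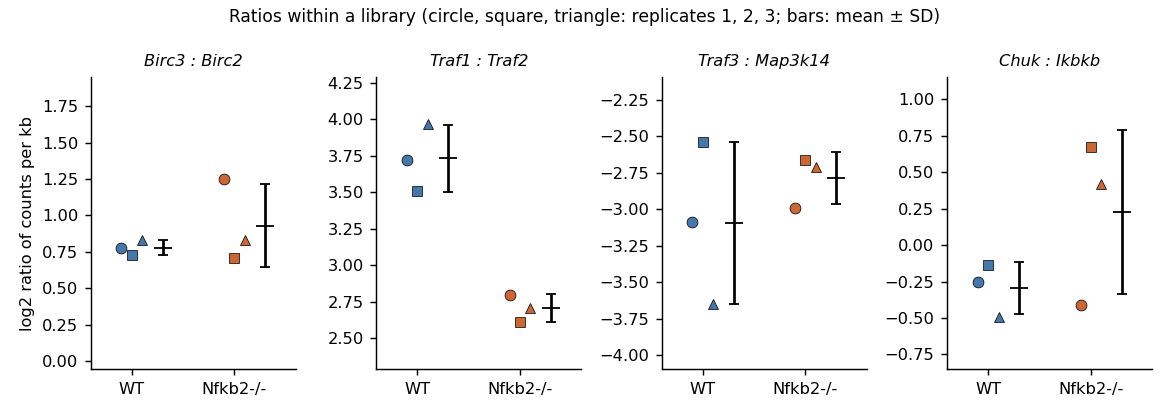
Log2 ratios of counts per kilobase within each library for 4 pairs of members (circle, square and triangle for replicates 1, 2 and 3; bars show the mean ± SD, n = 3; every panel spans the same log2 range). Traf1 : Traf2 is the pair without overlap, at 3.51 to 3.97 in WT and 2.61 to 2.80 in Nfkb2-/- BMDCs.

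The genes around the members were taken from 5 lists of 69 genes in all, of which 67 were tested. With edgeR, 1 of the 67 rose and 3 fell, and 1 of the 3 was Nfkb2, the targeted gene. Of all genes 1.14% were called, and of the 6034 abundant genes 1.87%. Of the 67, 42 had a log2 fold change below 0, and the median was -0.08. Below 0 were 9670 of all 21849 genes and 3373 of the 6034 abundant ones. In the list of receptors and ligands, Ltb, which encodes lymphotoxin β, rose from 0.878, 1.35 and 0.688 CPM in WT to 4.61, 4.58 and 4.77 CPM in Nfkb2-/- BMDCs (log2 fold change 2.25, SE 0.31, adjusted p = 0.0332, edgeR). The lymphocyte marker Cd3g measured 0.0949, 0.123 and 0.138 CPM in WT and 0.739, 0.330 and 0.206 CPM in Nfkb2-/- BMDCs, higher without overlap (adjusted p = 0.339, edgeR), and Cd3e measured 0 to 0.275 CPM in WT and 0.0935 to 1.18 CPM in Nfkb2-/- BMDCs (adjusted p = 0.428, edgeR). Both were highest in Nfkb2-/- replicate 1, whereas Ltb was level over the Nfkb2-/- libraries, and the part of lymphocytes in the Ltb values was not tested. The other 13 genes tested in the list did not pass, and Cd40lg and Tnfsf11 were below the filter. Among the 13, Lta measured 0, 0.492 and 0.241 CPM in WT and 4.08, 4.35 and 4.49 CPM in Nfkb2-/- BMDCs. Its log2 fold change was 4.17 (SE 0.87, adjusted p = 0.0746, edgeR). DESeq2 called 3 of the 14 genes tested in this list, where it called 8.65% of all genes, and limma voom called 2. The most abundant of the list were Csf2rb, the common β chain of the GM-CSF receptor, at 2556 ± 532 CPM in WT and 1841 ± 87.2 CPM in Nfkb2-/- BMDCs, and Tnfrsf1b, which encodes TNFR2, at 500 ± 117 and 230 ± 7.50 CPM (SD, n = 3). Neither passed the threshold, and Tnfrsf1b came close to it (adjusted p = 0.0522, edgeR).

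Among the 10 NF-κB subunits and IκB proteins, Nfkb2 was the 1 gene called, 8 had a log2 fold change below 0, and the median was -0.61. With Nfkb2 included, 6 had an unadjusted p-value under 0.05 (edgeR) and 5 were lower without overlap. Over all genes these shares were 17.1% and 12.0%, and over the 6034 abundant genes 24.8% and 20.6%. DESeq2 called 4 of the 10, where it called 8.65% of all genes, and limma voom called 1. The most abundant were Rel, at 2068 ± 338 CPM in WT and 1413 ± 61.5 CPM in Nfkb2-/- BMDCs, and Nfkb1, at 437 ± 127 and 459 ± 41.1 CPM (SD, n = 3). Of the 16 kinases and adaptors beside IKK, Map3k8, the kinase Tpl2 that binds the Nfkb1 precursor, fell. It measured 56.9, 62.5 and 70.1 CPM in WT and 29.4, 36.1 and 34.6 CPM in Nfkb2-/- BMDCs (log2 fold change -0.92, SE 0.16, adjusted p = 0.0474, edgeR). The most abundant of that list, Tab2 and Tank, which encode adaptors of the kinases TAK1 and TBK1, did not pass, at 406 ± 15.8 against 410 ± 21.0 CPM and 402 ± 85.1 against 285 ± 65.8 CPM.

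Of the 17 ubiquitin enzymes and their partners, Btrc fell from 35.9, 33.3 and 34.3 CPM in WT to 19.1, 18.5 and 19.9 CPM in Nfkb2-/- BMDCs (log2 fold change -0.85, SE 0.13, adjusted p = 0.0420, edgeR). Btrc encodes βTrCP1, the F-box protein that recognises IκBα and p100 once IKK has phosphorylated them, so it acts directly downstream of Chuk and Ikbkb. The libraries of each genotype agreed closely for Btrc, and its list had a median of -0.07. The cause of the fall in Btrc was not tested, and its distance from the targeted gene Nfkb2 was not measured here. Zfp91 and Cyld, the most abundant of the list, did not pass, at 202 ± 14.1 against 212 ± 22.1 CPM and 206 ± 16.3 against 198 ± 40.4 CPM. Of the 10 other TRAF and IAP genes 0 passed with edgeR (1 at an unadjusted p-value under 0.05, 0 with DESeq2, 0 with limma voom), their median was 0.05, and the most abundant, Birc6 and Xiap, overlapped between the genotypes. Unlike Traf1, the calls for Ltb, Map3k8 and Btrc were past the threshold with all 6 libraries, but each was lost without WT replicate 1 or without any 1 of the Nfkb2-/- replicates, with adjusted p-values of 0.0880 to 0.240 (edgeR), and Map3k8 also without WT replicate 3 (adjusted p = 0.0631, edgeR). With RLE size factors Map3k8 missed the threshold (adjusted p = 0.0516, edgeR), as Btrc did without TMM (adjusted p = 0.0759, edgeR).

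**Figure D5:**
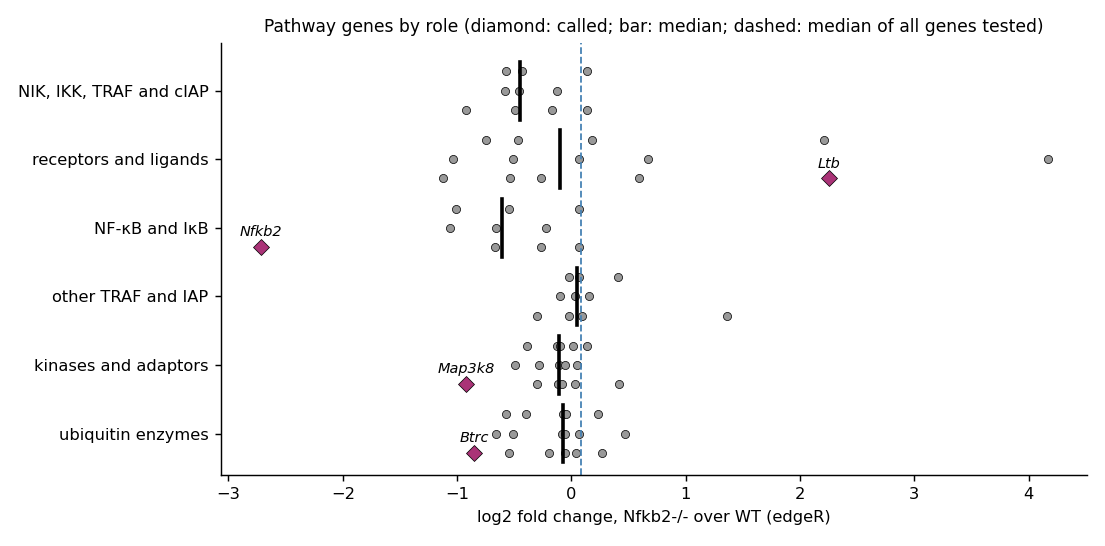
Log2 fold change of Nfkb2-/- over WT for the 10 members (top line) and the 67 tested genes of 5 lists around them, from edgeR; diamonds are genes that passed the threshold, black bars the medians and the dashed line the median of all genes tested, 0.08. The members have a median of -0.45 with no gene called, and Ltb, Nfkb2, Map3k8 and Btrc are the genes called in the lists.

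The member with the smallest unadjusted p-value, Traf1, was compared over the 6 libraries with the 10645 other genes of at least 5 CPM. The 5 genes most like it in log2 CPM were Vps39 (Pearson r = 0.9980), Ezh1 (0.9971), Mtmr12 (0.9965), Pex26 (0.9962) and Mgrn1 (0.9962), each n = 6. Of the members, Ikbkb (r = 0.980) and Traf6 (0.965) came nearest to Traf1, Birc3 (0.885), Map3k14 (0.884), Traf3 (0.835) and Birc2 (0.810) followed, and Ikbkg (0.312), Traf2 (0.0574) and Chuk (-0.330) were least alike. Of the other genes described above, 5 were picked for this comparison. Fscn1 (0.969), Cd83 (0.959), Nfkb2 (0.959), Ccr7 (0.951) and Relb (0.934) were closer to Traf1 than at least 7 of the 9 other members. The other mature DC markers were not compared by name. Among them Il12b and Ccl5 were lower without overlap in Nfkb2-/- BMDCs, and Ccl17 and Cd86 were higher. Fscn1 was also closer than Traf6. These values describe 6 points that share the genotype difference and the order of the WT libraries.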

How the data were processed

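Polyadenylated RNA of 3 WT and 3 Nfkb2-/- BMDC libraries was analysed, with genotype and replicate taken from the labels. The authors deposited whole-number counts of reads per Ensembl ID for each library, without normalization. The submitters' processing notes name HISAT2, GRCm38 and mm10, while the counting tool, annotation and use of strand are not given in the sources used here, so overlapping genes remain uncertain. A joined table of these values was not needed.

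Names from GENCODE M21 were found for 52073 of 56748 IDs, and IDs without a name (1.01% to 1.75% of a library's counts) were left out. The filter kept genes whose summed count reached 50, 21849 in all. Counts were TMM-normalised and the genotypes compared with glmQLFit and glmQLFTest of edgeR 4.0.16 (R 4.3.3) without covariates. A gene was called at a Benjamini-Hochberg adjusted p-value under 0.05 over all genes and a fold change over 1.2. Standard errors are the log2 fold change divided by the square root of F. Correlations used log2 CPM with a prior count of 2. Alternatives were DESeq2 1.42.0, limma 3.58.1 (voom), other scalings, filters and thresholds, a replicate block and each library left out. The test was tested on simulated counts. Depth was 29863927 to 55623068 counts per library. Counting error, 1 over the square root of the mean count, was 0.814% to 3.63% of a member's level. It was small beside the WT coefficient of variation of Map3k14 (44.1%), Birc3 (34.3%) and Traf1 (32.6%), but near that of Chuk (2.20% against 1.74%) and Ikbkg (2.93% against 2.08%).

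The members and lists were chosen with earlier results of these data known. Named genes are the members, Nfkb2, the called and the 2 most abundant genes of each list, and the 5 genes most like the member with the smallest p-value. Relb, G6pdx, 1700028N14Rik, Ccr7, Lamp3, Apoe, Elane, Cd40lg and Tnfsf11 were named after their values were seen. Fscn1, Cd83, Ccl5, Cd86, Cd80, Cd3e, Cd3g, Lta, Zbtb46, Ciita and Clec9a were likewise named after their values were seen. Not all lymphocyte markers are reported here. Sequences are from the RefSeq promoter table (GRCm38.p6). The κB consensus was searched on both strands.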

Additional observations from a re-analysis of the deposited data

How the results depend on the processing

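No member passed in the edgeR test with all libraries, and 3 had an unadjusted p-value under 0.05. DESeq2 called 2 members, no filter beyond 1 count called 1, and single libraries left out gave 0 to 1. The 8 members below 0 stayed below 0 under all 14 alternatives, Traf2 stayed above 0, and Chuk ran from -0.05 (without Nfkb2-/- replicate 2) to 0.36 with libraries left out. The difference in the Birc3 to Birc2 ratio ranged from -0.01 (without Nfkb2-/- replicate 1) to 0.26 with libraries left out, that of Traf3 to Map3k14 from 0.03 to 0.58, that of Chuk to Ikbkb from 0.30 to 0.84, and that of Traf1 to Traf2 from -1.14 to -0.91.

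Of all genes, 248 were called in the main test, 1890 with DESeq2 (50.1% of them higher, against 39.9%), 488 with limma voom, 397 with filterByExpr, 1625 with no filter beyond 1 count, 459 with at least 10 counts in every library and 808 at an adjusted p-value under 0.1. With libraries left out the count ran from 0 to 1248. It was 0 without WT replicate 1 or Nfkb2-/- replicate 1, 2 or 3, where an unadjusted p-value under 0.05 was reached by 2325, 4088, 2580 and 2726 genes, and 1248 without WT replicate 2. Of the pathway genes, 4 were called in the main test, 10 with DESeq2, 9 with no filter beyond 1 count, and 0 to 10 with libraries left out. With the replicate number as a block, edgeR called 0 genes, pathway genes 0 and members 0, with 3331 genes and 3 members at an unadjusted p-value under 0.05. Same-numbered libraries of the 2 genotypes deviated together at correlations of 0.262, 0.148 and 0.0224. Libraries with different numbers ran from -0.237 to 0.164, the highest for Nfkb2-/- replicate 3 with WT replicate 2. Whether the numbers pair the libraries cannot be told from these values. Fits without a library kept at least 2 per genotype. The cause of these shifts was not tested, and with 3 libraries per genotype differences of the size seen for Map3k14 or Birc3 were within the WT spread.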
